A study of Arabidopsis thaliana with 6 samples.

Results

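Organ boundary genes are the transcription factors and cofactors that mark and maintain the narrow zone between a meristem and its organs, or between neighbouring organs. The 10 genes described here were chosen by identifier: the NAC genes CUC1 (AT3G15170), CUC2 (AT5G53950) and CUC3 (AT1G76420), the LOB domain genes LOB (AT5G63090) and JLO (AT4G00220), the trihelix gene PTL (AT5G03680), the zinc finger gene RBE (AT5G06070), the GRAS gene LAS (AT1G55580), and BOP1 (AT3G57130) and BOP2 (AT2G41370). All 10 were among the 17675 genes of the deposited table. RNA had been sequenced from inflorescences of Arabidopsis thaliana plants 3 weeks old that carry ARF3:ARF3-GR, a fusion of the auxin response factor ARF3 to the steroid-binding domain of the glucocorticoid receptor, written as under the control of ARF3 sequences, in the arf3-29 mutant. That fusion and that mutant allele are common to every plant. Of 6 libraries, 3 came from plants treated with 10 µM dexamethasone (DEX) in DMSO, given with 0.015% Silwet L-77, and 3 from plants labelled DMSO. Plants were kept in long days (16 h light, 8 h dark) at 23 °C, and flowers older than stage 6 were removed before extraction. DEX releases a GR fusion into the nucleus, so DEX against DMSO addresses the response to active ARF3-GR. DEX-treated plants without the fusion were not analysed here, and an effect of DEX itself cannot be told apart from one of ARF3-GR. The labels describe the treatment only with DEX and do not say whether DMSO plants also received Silwet, so a difference in Silwet between the groups cannot be told apart either.

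A boundary is a place of low growth, and it is set where auxin and brassinosteroid responses are weak. CUC genes keep organs apart and open the way for meristem genes such as STM, while the microRNA miR164 limits CUC1 and CUC2 but not CUC3. LAS acts at boundaries to allow axillary meristems to form, BOP proteins pattern the base of organs together with TGA factors, and PTL and RBE act in the spaces where sepals and petals arise.

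Each library held 10703769 to 14469527 reads over the listed genes, as recovered from the deposited reads per 1000000 reads (RPM), and 1 read was worth 0.0691 to 0.0934 RPM. The library DEX-3 differed more from the other DEX libraries (chi-square per degree of freedom of 10.5 and 12 over genes) than those differed from each other (2.80). DEX-3 held the lowest DEX value for 6 of the 10 members, and the share of all genes for which it did so was not computed. ARF3 itself fell from 248 ± 8.64 to 144 ± 4.14 RPM (SD, n = 3 each), where transgene and mutant allele cannot be separated. All 9 markers of young flowers were present, with 836 to 890 RPM in sum in DMSO libraries and 908 to 978 RPM in DEX libraries, and the lowest of the 9 in DMSO was CLV3 at 2.55 ± 0.723 RPM. Of these markers PI and SEP3 were higher in DEX and CAL and AP3 lower, with PI alone going from 173 ± 6.16 to 268 ± 7.33 RPM, and their part in the results was not tested. Without DMSO-2 or DMSO-3, 1 of the young flower markers was lower, as AP3 did not pass. Of 7 markers of later anthers and pollen, 5 were listed, and all 5 were higher in DEX. Without DEX-3 2 of them were higher, and without DEX-1 or DEX-2 3, where fewer of the markers could be tested. LAP6 was tested without DEX-3 and did not pass (limma adjusted p = 0.0971). It also lost its call without DMSO-1 (limma adjusted p = 0.0601), without DMSO-3 (0.161) and without the intensity trend (0.0629). AMS, ATA7 and LAP5 are in the table through their DEX values, as fewer than 3 libraries would otherwise reach 1 RPM, and this favours a rise. The summed level of the 5 listed was 18.5 to 23.0 RPM in DMSO and 35.9 to 41.0 RPM in DEX. None of the 5 was at 0 in any library, and their part in the results below was not tested. The 6 green tissue markers summed to 7795 to 8092 RPM in DMSO and 9099 to 9822 RPM in DEX, with 3 of them higher and 1 lower, and their part was likewise not tested. Fewer boundary cells in a sample and less RNA per boundary cell cannot be told apart in such bulk RNA.

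In DEX, 5 of the 10 organ boundary genes were lower and none was higher. The 5 were CUC3, BOP1, LAS, CUC1 and CUC2, and the test was limma on log2(RPM + 1) with Benjamini-Hochberg adjustment over all 17675 genes at a threshold of 0.05. Over all genes tested, 28.1% passed as lower and 29.6% as higher, 57.7% in all, so a total of 5 called among 10 lies near the background. No member reached an unadjusted p under 0.05 in the higher direction, and edgeR and DESeq2 on recovered reads also called 0 higher, with 5 and 4 lower. The median log2 fold change was -0.21 over the 10 members and 0.0035 over all genes. Values in all 3 DEX libraries lay below all 3 DMSO values for 6 members (30.7% of all genes do so), these being the 5 named and BOP2. For the other 4 the groups overlapped.

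**Figure D1:**
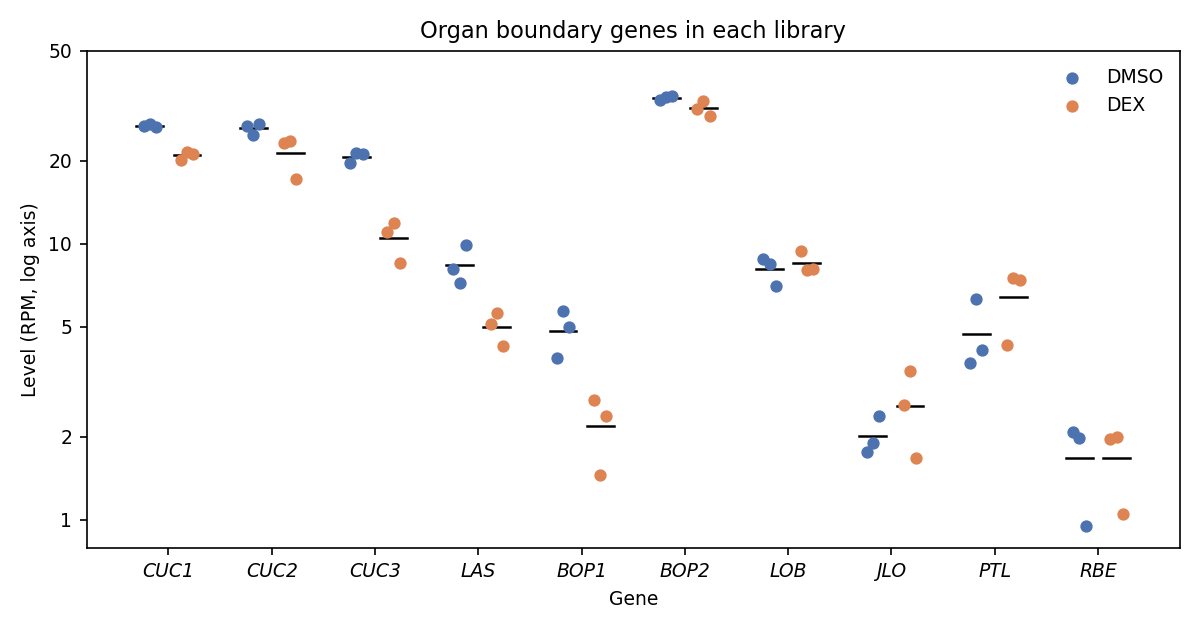
Level of each organ boundary gene in each library, in RPM on a log axis, with points for the 3 DMSO and 3 DEX libraries and bars for group means. The DEX points of CUC1, CUC2, CUC3, LAS, BOP1 and BOP2 all lie below the DMSO points, and those of LOB, JLO, PTL and RBE overlap them.

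CUC3, a NAC transcription factor of every shoot boundary, and BOP1 had the lowest log2 fold changes of the 10, and which of them was lower depended on the pseudocount, the test and the libraries. CUC3 had 19.6, 21.3 and 21.1 RPM in the DMSO libraries and 11.02, 11.9 and 8.54 RPM in DEX-1, DEX-2 and DEX-3. The groups stood well apart, with DEX-3 the lowest library of all. CUC3 fell from 20.7 ± 0.902 to 10.5 ± 1.74 RPM, that is to 50.7% of its DMSO level, a log2 fold change of -0.93 (SE 0.138, 95% interval -1.22 to -0.63, limma adjusted p = 2.01e-05). Without DEX-3 the log2 fold change was -0.80 (limma adjusted p = 3.06e-06).

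CUC1 and CUC2, the pair of NAC genes under miR164 control, fell by much less. CUC1 had 26.7, 27.1 and 26.4 RPM in DMSO and 20.1, 21.5 and 21.1 RPM in DEX. Its libraries were tightly grouped within each treatment. The DEX mean was 78.1% of the DMSO mean, with a log2 fold change of -0.34 and an SE of 0.103 (limma adjusted p = 0.00887). CUC2 had 26.8, 24.7 and 27.2 RPM in DMSO and 23.2, 23.6 and 17.1 RPM in DEX, where DEX-1 and DEX-2 came close to the lowest DMSO library and DEX-3 was far below. Its log2 fold change of -0.30 (95% interval -0.56 to -0.03) stood at the threshold itself, with a limma adjusted p of 0.0499. The CUC2 call was lost without DEX-3 (-0.16, limma adjusted p = 0.225), without DMSO-1 (adjusted p = 0.125), without DMSO-2 (adjusted p = 0.0651) and without DMSO-3 (adjusted p = 0.141). With DESeq2 its adjusted p was 0.0644.

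The sequences below are shown because CUC1 and CUC2 carry a site at which miR164 pairs, and any part of the site in these changes was not tested. The mature miRNAs are from the RefSeq annotation of TAIR10.1, with the seed (bases 2 to 8) in capitals, and miR164b-5p has the same letters as miR164a:
ath-miR164a: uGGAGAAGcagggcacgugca
ath-miR164c-5p: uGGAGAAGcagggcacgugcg
The sites are the best match of each transcript to the reverse complement of miR164a in TAIR10.1, 5′ to 3′, with capitals where a base pairs by Watson-Crick rules, and all 4 lie within coding sequence. CUC1 carries it at chr3:5111137-5111157 (+ strand), CUC2 at chr5:21902301-21902321 (- strand), NAC1 at chr1:20947142-20947162 (- strand) and ORE1 at chr5:15858797-15858817 (- strand):
CUC1: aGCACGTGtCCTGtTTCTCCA
CUC2: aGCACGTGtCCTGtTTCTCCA
NAC1: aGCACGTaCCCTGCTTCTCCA
ORE1: ctCACGTGaCCTGCTTCTCCg
The CUC1 and CUC2 sites were identical, with 18 of 21 bases paired. No stretch of CUC3 paired at more than 12 bases, the same as for 6 of the other members, and BOP1 reached 13. The precursor genes of miR164 were not analysed here.

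Of 6 miR164 targets taken up, 4 were listed, and NAC100 and NAC080 were not. Among the 4 listed, CUC1 and CUC2 were lower while NAC1 and ORE1 were higher, beside 28.1% lower and 29.6% higher over all genes. ORE1 (AT5G39610), a NAC regulator of leaf ageing, had 2.17, 4.10 and 2.37 RPM in DMSO and 69.5, 68.1 and 73.1 RPM in DEX. Its log2 fold change was 4.23 with an SE of 0.160 (limma adjusted p = 4.00e-13). The treatments were far apart for this gene. NAC1 (AT1G56010), known for its part in lateral roots, went from 0.613 ± 0.257 to 1.47 ± 0.132 RPM (limma adjusted p = 0.0318). NAC1 reached 1 RPM in no DMSO library, so it is in the table through its DEX values, which favours a rise. Its adjusted p was 0.0564 with DESeq2 and 0.133 without DMSO-1, and without any 1 DEX library it was not tested, being under the minimum level.

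The balance among the CUC genes was examined as ratios within a library, which no scaling can alter. CUC3 stood at 0.733, 0.861 and 0.776 times the RPM of CUC2 in DMSO and at 0.476, 0.503 and 0.498 times in DEX. Every DEX ratio was below every DMSO ratio, and the log2 ratio differed by -0.68 (exact permutation test, two-sided, p = 0.10, the smallest that 3 against 3 libraries allow; adjusted over 3 ratios, p = 0.15). CUC1 stood at 0.997, 1.10 and 0.971 times CUC2 in DMSO and at 0.867, 0.909 and 1.23 times in DEX. Those groups overlapped, with DEX-3 the highest and the other DEX libraries the lowest (log2 difference -0.04, exact permutation test, two-sided, p = 0.80, adjusted p = 0.80).

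**Figure D2:**
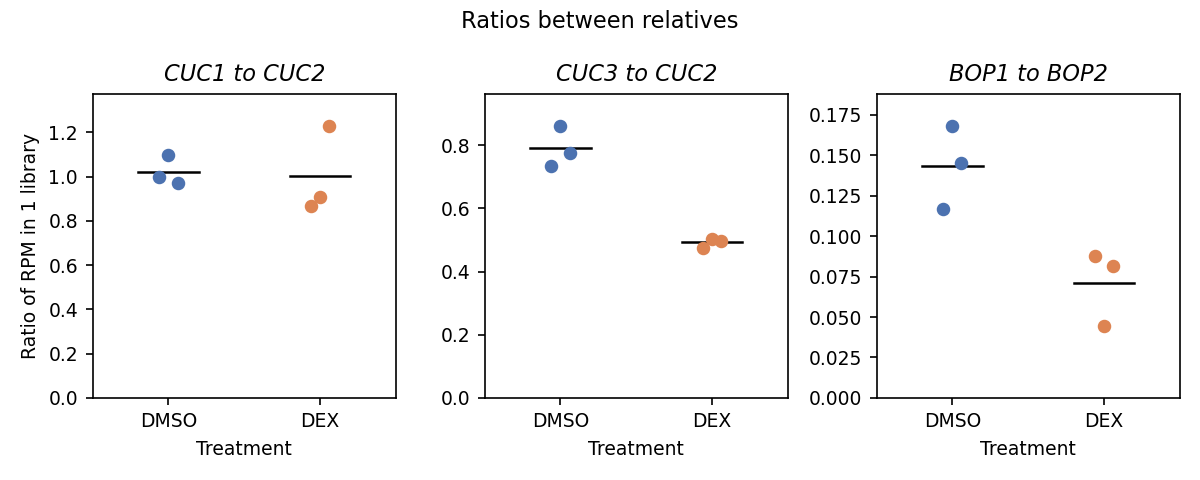
Ratio of RPM between relatives within each library (vertical axes from 0), for CUC1 to CUC2, CUC3 to CUC2 and BOP1 to BOP2, with a point for each of the 3 DMSO and 3 DEX libraries and a bar for the group mean. CUC3 to CUC2 lies at 0.733 to 0.861 in DMSO and 0.476 to 0.503 in DEX, whereas CUC1 to CUC2 overlaps.

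LAS, the GRAS protein of axillary meristem formation, was lower in DEX. LAS had 8.12, 7.18 and 9.88 RPM in DMSO and 5.14, 5.60 and 4.27 RPM in DEX, and its groups did not overlap. The mean fell from 8.39 ± 1.37 to 5.002 ± 0.675 RPM, to 59.6% of DMSO, with a log2 fold change of -0.64 (SE 0.175, 95% interval -1.01 to -0.27, limma adjusted p = 0.00461).

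The relatives BOP1 and BOP2, BTB-ankyrin cofactors that act partly in each other's place, differed both in level and in change. BOP1 had 3.86, 5.72 and 4.98 RPM in DMSO and 2.71, 1.45 and 2.38 RPM in DEX, with DEX-2 the lowest. It fell to 44.9% of its DMSO mean, a log2 fold change of -0.89 (SE 0.217, 95% interval -1.35 to -0.43, limma adjusted p = 0.00206). This rests on 48, 78 and 63 reads in DMSO and 29, 21 and 34 reads in DEX. On the log2(RPM + 1) scale the change of so weak a gene is understated, and edgeR on the reads gave -1.18 (adjusted p = 0.00276). With a pseudocount of 5 it was -0.46.

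BOP2, the most strongly read member, had 33.0, 34.0 and 34.2 RPM in DMSO and 30.8, 32.8 and 29.1 RPM in DEX. The DEX values were all lower, but by little, and the difference of -0.13 did not pass (95% interval -0.32 to 0.07, limma adjusted p = 0.270). A fall of BOP2 as large as that of BOP1 thus lies outside its interval. BOP1 stood at 0.117, 0.168 and 0.145 times BOP2 in DMSO and at 0.0879, 0.0443 and 0.0817 times in DEX. All DEX ratios were below all DMSO ratios (log2 difference -1.06, exact permutation test, two-sided, p = 0.10, the smallest possible, adjusted p = 0.15). A gene on the opposite strand, AT2G41375, overlaps BOP2 in the annotation and is not listed in the deposited table. As the use of strand is not given in the sources used here, reads from AT2G41375 could not be set apart. The longest identical run between BOP1 and BOP2 transcripts was 32 bases, and among the CUC genes it was 20 to 23 bases.

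**Figure D3:**
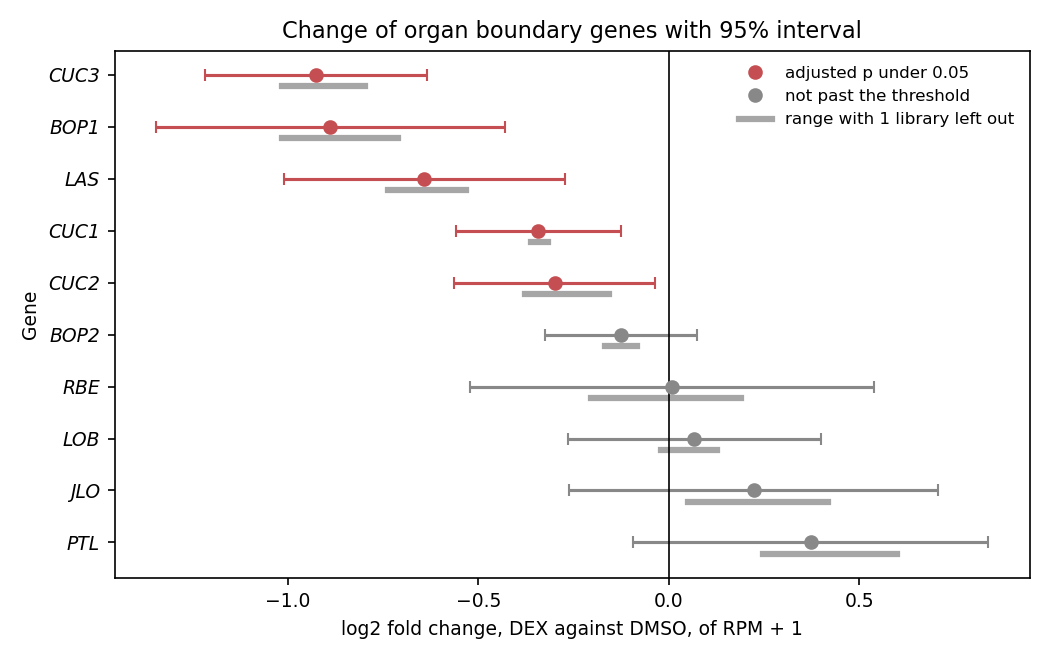
Log2 fold change of RPM + 1, DEX against DMSO, of the 10 genes with 95% intervals from limma, in red where the adjusted p was under 0.05 and in grey otherwise, and a grey bar for the range when 1 library is left out. CUC3, BOP1, LAS, CUC1 and CUC2 have intervals below 0, while those of BOP2, RBE, LOB, JLO and PTL include 0.

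Neither LOB domain member passed the test. LOB, the founding gene of its family, whose protein limits brassinosteroid at the base of organs, had 8.84, 8.43 and 7.03 RPM in DMSO and 9.44, 8.02 and 8.12 RPM in DEX. Its libraries were interleaved (log2 difference 0.07, 95% interval -0.26 to 0.40, limma adjusted p = 0.734). JLO, which acts in boundaries and in auxin transport, had 1.77, 1.91 and 2.37 RPM in DMSO and 2.62, 3.46 and 1.68 RPM in DEX. DEX-3 was the lowest JLO library and DEX-2 the highest, with 22 to 50 reads in each (log2 difference 0.22, 95% interval -0.26 to 0.71, limma adjusted p = 0.423).

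PTL and RBE, the regulators of the sepal boundary and of petal initiation, did not pass either. PTL had 3.70, 6.30 and 4.11 RPM in DMSO and 4.30, 7.53 and 7.42 RPM in DEX. The groups overlapped through DMSO-2 on the high side and DEX-1 on the low side (adjusted p = 0.159 by limma, log2 difference 0.37, 95% interval -0.09 to 0.84). When DEX-1 was left out, PTL was higher by 0.60 and passed (limma adjusted p = 0.0265), so that 1 member was then called higher. RBE had 2.09, 1.98 and 0.948 RPM in DMSO and 1.96, 2.004 and 1.05 RPM in DEX, with replicate 3 the lowest in both treatments. With 12 to 29 reads per library its interval of -0.52 to 0.54 is wide, and smaller differences were not detectable at this depth. RBE in DMSO-3 was the single member value under 1 RPM.

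Levels were compared between genes per kilobase of exon. In DMSO the order was CUC1 at 21.6 ± 0.294 RPM per kb, CUC2 at 18.1 ± 0.920, BOP2 at 15.5 ± 0.287, CUC3 at 14.4 ± 0.627, LOB at 6.42 ± 0.752, LAS at 4.24 ± 0.691, BOP1 at 2.42 ± 0.466, PTL at 2.04 ± 0.606, JLO at 1.84 ± 0.288 and RBE at 1.61 ± 0.607 RPM per kb. Neighbours from CUC1 down to BOP1 did not overlap in their library ranges, and BOP1, PTL, JLO and RBE each overlapped the next. In DEX, CUC1 (16.9 ± 0.583 RPM per kb) and CUC2 (14.7 ± 2.50) overlapped, as did CUC2 and BOP2 (14.2 ± 0.840). CUC3 (7.29 ± 1.21 RPM per kb in DEX) came down into the range of LOB (6.75 ± 0.628), and BOP1 at 1.09 ± 0.325 had the lowest mean, although its range overlapped that of RBE at 1.61 ± 0.520. Of the others in DEX, PTL stood at 2.78 ± 0.795 RPM per kb, LAS at 2.53 ± 0.341 and JLO at 2.36 ± 0.812, and each overlapped the next.

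Windows of 300 bases, from 250 before to 50 after the annotated start in TAIR10.1, were searched on both strands for 2 auxin response elements. TGTCTC was present for BOP1, JLO, PTL and LOB, 4 of 10 members against 14.2% of 27443 promoters, and TGTCGG for none against 5.12%. Of the 5 genes that fell, BOP1 alone held one, and there it lay after the start. A match is only a description of the letters.

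For each gene that fell, the nearest profiles over the 6 libraries among 14196 genes with a mean of at least 5 RPM were sought by root mean square distance of centred log2(RPM + 1). Nearest to CUC1 were ATS9 (AT1G29150, distance 0.0142) and FIB (AT4G04020, 0.0181), and 951 genes lay within 0.1. CUC2 was nearest to AT5G38460 (0.0378) and PRXQ (AT3G26060, 0.0387), with 224 genes within 0.1. CUC3 had AT1G65295 and AT2G01970 nearest, both at 0.0328, with 125 genes within 0.1. LAS had PAT2 (AT3G55480, 0.0439) and THE1 (AT5G54380, 0.0567), with 34 genes within 0.1. The nearest to BOP1 were MYB111 (AT5G49330, 0.107) and UBP17 (AT5G65450, 0.110), and no gene lay within 0.1. BOP1 had only 21 to 78 reads in a library, and genes as weak as BOP1 were not compared. Any part of depth or of this minimum in its larger distances was not tested. None of the genes named as nearest is itself one of the 10 organ boundary genes. BOP1, JLO and RBE had means under 5 RPM and could not be named. With only 2 genes named for each member, this does not say whether members share a profile. Each profile was fixed in part by the fall for which its gene was taken up, so these distances are a description.

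Other regulators of boundaries and meristems moved both ways: of 19 listed, 3 rose and 5 fell, with a median log2 fold change of -0.11. Counts in this list and in those that follow stand beside shares over all genes of 29.6% higher and 28.1% lower, and 8 called of 19 is a smaller share than the 57.7% over all genes. HAN (AT3G50870), a GATA factor between meristem and organ, fell from 31.7 ± 2.71 to 12.9 ± 2.83 RPM, with an adjusted p of 9.85e-07 in limma and a log2 fold change of -1.25. JAG (AT1G68480), a promoter of organ growth, fell from 15.1 ± 0.690 to 8.23 ± 1.74 RPM, and the others that fell were REV, LSH4 and STM. KNAT6 (AT1G23380), a KNOX gene that overlaps with STM in function and marks boundaries, rose from 13.7 ± 2.59 to 26.5 ± 3.96 RPM (limma adjusted p = 4.01e-05). LSH3 (AT2G31160), itself expressed in boundaries, had 48.3, 43.2 and 45.0 RPM in DMSO and 73.4, 73.5 and 71.0 RPM in DEX, and rose (limma adjusted p = 1.79e-06). Its relative LSH4 (AT3G23290), like LSH3 a direct target of CUC1, fell from 65.4 ± 4.73 to 47.9 ± 11 RPM. Its adjusted p of 0.00524 in limma became 0.0546 without the intensity trend. LSH1 was the third that rose. LOF1 and UFO had log2 differences of -0.16 and -0.28 that did not pass. The LOF1 groups overlapped, while all UFO values in DEX lay below those in DMSO, as for 30.7% of all genes. UFO had an adjusted p of 0.0689 in limma and passed without the intensity trend (0.0338).

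Of 19 listed regulators known to act on boundary genes, 14 fell and 3 rose, with a median log2 fold change of -0.59. Of the auxin genes among them, PID (AT2G34650), a kinase that directs auxin flow, fell from 108 ± 4.57 to 54.7 ± 4.46 RPM, and its log2 fold change was -0.96 (limma adjusted p = 1.76e-08). ARF5 (AT1G19850), an auxin response factor needed to start flowers, fell from 208 ± 4.37 to 113 ± 3.18 RPM, and its log2 fold change was -0.87 (limma adjusted p = 2.75e-09). Of the 7 CIN-class TCP genes, which hold back CUC genes in organs, TCP10, TCP4, TCP2 and TCP17 fell and TCP13 rose, while TCP5 and TCP24 did not pass. TCP10 (AT2G31070) fell from 81.0 ± 1.14 to 33.7 ± 9.81 RPM, and TCP13 (AT3G02150) rose from 7.72 ± 1.58 to 20.8 ± 2.17 RPM. TCP17 lost its call without DMSO-1, DMSO-2 or DEX-3 (adjusted p = 0.0835, 0.0521 and 0.0765). With 0.630 RPM in DEX-3, TCP17 is in the table through its DMSO values, which favours a fall. The B3 repressors split: NGAL1 (AT2G36080) rose from 24.7 ± 3.68 to 85.0 ± 18.1 RPM (limma adjusted p = 8.57e-09), whereas DPA4 (AT5G06250), a repressor of CUC genes in leaf teeth, fell from 17.5 ± 2.41 to 8.73 ± 2.72 RPM. Also lower were AS1 and AS2, the brassinosteroid factors BZR1 and BES1, and the chromatin remodellers BRM and SYD, of which BRM lost its call without DMSO-2, DMSO-3 or DEX-1 (adjusted p = 0.0612, 0.175 and 0.0698) and in limma without the intensity trend (0.0818).

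Among 11 genes taken up as downstream of the members or otherwise linked to them, some of them counted above, 2 rose and 4 fell (median log2 fold change -0.12). TCP4 (AT3G15030), which RBE represses, fell from 42.8 ± 2.74 to 18.2 ± 2.63 RPM. AS2 (AT1G65620), an LBD gene of the upper leaf side, fell from 14.3 ± 1.23 to 7.67 ± 2.96 RPM (limma adjusted p = 0.00176). BAS1, the brassinosteroid-inactivating target of LOB, had 30.2 ± 1.26 and 26.9 ± 3.19 RPM and did not pass.

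**Figure D4:**
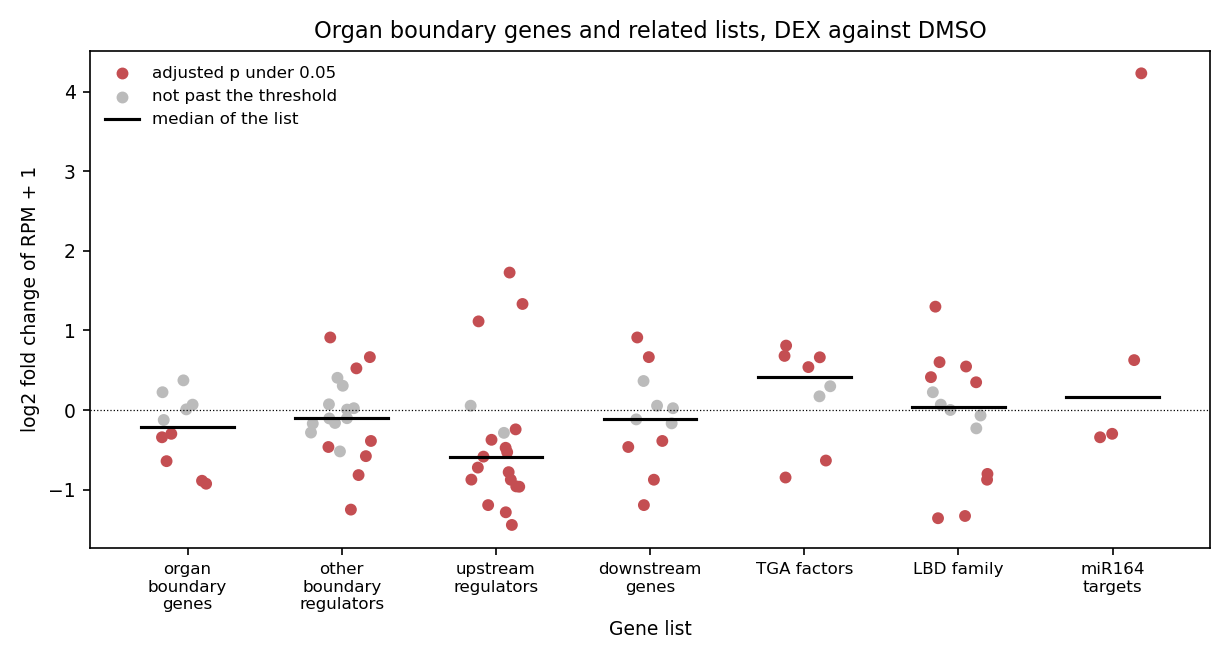
Log2 fold change of RPM + 1, DEX against DMSO, for the 10 organ boundary genes and 6 related lists, 1 point per gene, red where the limma adjusted p was under 0.05, with a bar at each median. The upstream regulators have the lowest median (-0.59) of the lists drawn, and ORE1 stands alone at 4.23 among the miR164 targets.

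TGA factors, the DNA-binding partners of BOP proteins, also divided: of 8 listed, 4 rose and 2 fell (median log2 fold change 0.42). PAN (AT1G68640), which sets floral organ number, fell from 19.3 ± 3.08 to 10.2 ± 1.29 RPM, with an adjusted p of 8.54e-05 in limma and a log2 fold change of -0.85. TGA9 (AT1G08320), an anther gene, rose from 19.0 ± 1.32 to 34.3 ± 5.19 RPM, TGA1 (AT5G65210) from 1.96 ± 0.391 to 3.72 ± 0.330 RPM and TGA4 (AT5G10030) from 0.959 ± 0.150 to 2.11 ± 0.406 RPM. TGA4 reached 1 RPM in 1 DMSO library and is in the table through its DEX values, which favours a rise, and it lost its call without DMSO-2 (adjusted p = 0.0597) or DEX-2 (0.0819). TGA5 was the fourth that rose, and TGA10 the other that fell. Without DMSO-2, 2 TGA genes rose in place of 4, TGA5 being the other one lost (adjusted p = 0.0645), and TGA10 did not pass without DMSO-1 (0.0573) or DMSO-3 (0.0575).

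The LBD family, to which LOB and JLO belong, had 14 of 42 genes in the table, of which 5 rose and 4 fell (median log2 fold change 0.03). LBD37 (AT5G67420), tied to nitrogen response, rose from 71.4 ± 0.296 to 178 ± 16.8 RPM (adjusted p = 1.55e-10 by limma), together with LBD38, LBD39, LBD40 and LBD41. LBD4 (AT1G31320) fell from 39.6 ± 0.902 to 15.0 ± 2.65 RPM (limma adjusted p = 4.45e-08) and LBD11 (AT2G28500) from 4.58 ± 0.891 to 1.23 ± 0.454 RPM, and AS2 and LBD19 were the others that fell. LBD11 was under 1 RPM in DEX-3 (0.840 RPM) and is in the table through its DMSO values, which favours a fall. LBD31 had 2.43 ± 1.16 and 2.37 ± 0.885 RPM and did not pass. Without DMSO-3, 3 LBD genes rose in place of 5, as LBD38 and LBD40 did not pass (adjusted p = 0.0623 and 0.0715).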

How the data were processed

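RNA-seq of 6 libraries was used, 3 per treatment, grouped by the labels. TopHat and HTSeq are named in the submitters' processing notes; the sources used here give no version, setting, genome build or use of strand. RPM values were deposited by the authors for 17675 genes, each with at least 1 RPM in 3 or more libraries. Whole reads were recovered: 100% of values were whole within 0.01 reads. Names, exon lengths and sequences came from RefSeq TAIR10.1, which matched 17646 identifiers.

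The members and lists were chosen with earlier results of these data known. Values were tested as log2(RPM + 1) with limma 3.58.1 (R 4.3.3, intensity trend, two-sided, Benjamini-Hochberg over all genes, threshold 0.05). The procedure was also run on simulated counts in which far fewer genes were changed than were called here, so no support for the calls is drawn from that run. Alternatives included edgeR 4.0.16, which called 10146 genes, and DESeq2 1.42.0, both on the recovered reads. Nothing says that replicates came from separate plants, so p-values reflect only the variation among these samples, and this may be technical.

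All members were named; of each list, the rule took up to 4 members past the threshold by size of change, and for each called member the 2 nearest profiles. One gene that this rule took is not reported here. Other genes named were chosen after their values were seen. One identifier among the B3 repressors, AT3G11580, has no name in the annotation, and it rose. Weaker genes were not analysed here.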

Additional observations from a re-analysis of the deposited data

How the results depend on the processing

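Under 17 alternatives (other pseudocounts, filters, scalings and moderation, edgeR, DESeq2, the replicate block and each library left out) CUC1, CUC3 and LAS kept their calls, as did BOP1 in the 16 that tested it (it was not tested at a minimum of 5 RPM). One of the 17, without a filter, gave the same fit, since the deposited table was already filtered, and is no separate check. CUC2 passed in 9 of 17, that fit included, with adjusted p from 0.0306 to 0.225. The members called lower were 4 or 5 under every alternative; those called higher were 0, or 1 without DEX-1, thus 0 to 1 with 1 library left out. All genes called numbered 4597 to 5111 higher and 4254 to 5057 lower with 1 library left out, against 5238 and 4966. The log2 ratio of CUC1 to CUC2 ranged from -0.20 to 0.05 with 1 library left out and changed sign without DMSO-2 (0.0081), DEX-1 (0.051) or DEX-2 (0.016); that of CUC3 to CUC2 ranged from -0.73 to -0.62 and of BOP1 to BOP2 from -1.24 to -0.74.

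The replicate numbers did not pair the libraries (correlations of same-numbered deviations -0.047, 0.062 and 0.029). With the replicate block, CUC2 had an adjusted p of 0.0480, 5 members were lower and 10255 genes were called in all, against 10204. At a minimum of 5 RPM the counts higher were 1 miR164 target, 2 TGA factors and 2 late anther markers, and the counts lower were 1 TGA factor and 2 LBD genes; fewer genes were tested there. Of miR164 targets, 1 was higher with DESeq2, and 1 was lower with a pseudocount of 0.1 or 5, without the intensity trend and with DESeq2, for CUC2 was not called. With 1 library left out, miR164 targets had 1 to 2 higher and 1 to 2 lower, TGA factors 2 to 4 higher and 1 to 2 lower, young flower markers 1 to 3 lower, late anther markers 2 to 5 higher and LBD genes 3 to 5 higher. Depth limits RBE, JLO and BOP1 most, with as few as 12, 22 and 21 reads in a library.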
